A study of Mus musculus with 6 samples.

Results

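The 7 genes described here encode Tctex-type and LC8-type light chains of the motor protein dynein: Dynlt1a, Dynlt1b, Dynlt1c and Dynlt1f, which are copies of 1 gene, and Dynlt3, Dynll1 and Dynll2. They were taken by symbol from the 54393 genes of the deposited table, with the GENCODE M21 annotation, and all 7 passed the filter used here, a mean over the 6 samples of 10 normalized counts or more. RNA was sequenced from the tibialis anterior (the shin muscle) of adult mice of 2 genotypes, with 3 wild-type (WT) and 3 Dock3 knockout (Dock3 KO) muscles. The titles of the WT samples carry the prefix C57, and neither the strain of the knockout nor how its allele was made is given in the sources used here. Dock3 encodes a guanine nucleotide exchange factor for the small GTPase Rac. The genes were selected on their values in the comparison of Dock3 KO with WT, so those differences are given as values with no test. Nothing in the labels says more of the 6 samples than that they are separate muscles, so p-values of other genes measure only the spread between these samples.

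Cytoplasmic dynein is the motor that carries cargo along microtubules toward their minus ends, and in muscle fibres it takes part in positioning nuclei. Its heavy chains walk, its intermediate and light intermediate chains hold cargo, and 3 families of small light chains (Tctex-type, LC8-type and roadblock) bind to the intermediate chains as dimers. Dynlt1b is the gene known as Tctex1, and Dynlt3 is its relative on the X chromosome. Dynll1 and Dynll2 are the LC8-type chains, which also bind many proteins outside dynein, and Dynll2 is a light chain of the myosin Va motor.

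The 4 Dynlt1 copies lie within 350 kb of chromosome 17 (GRCm38, 1-based). Dynlt1a (ENSMUSG00000092074) spans 6306340-6317500 on the minus strand, and Dynlt1b (ENSMUSG00000096255) spans 6430112-6436296 on the plus strand. Dynlt1c (ENSMUSG00000000579) spans 6601671-6609774 on the plus strand, and Dynlt1f (ENSMUSG00000095677) spans 6646602-6655900 on the minus strand. Each has 5 exons and 339 coding bases before the stop codon. The first 60 coding bases are shown because they hold the single coding base at which the copies differ, which is in capitals. They are from the GENCODE M21 transcripts and run 5′ to 3′ from the start codon.
Dynlt1a: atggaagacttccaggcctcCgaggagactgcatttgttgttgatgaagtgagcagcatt
Dynlt1b: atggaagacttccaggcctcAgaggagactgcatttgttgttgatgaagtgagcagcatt
Dynlt1c: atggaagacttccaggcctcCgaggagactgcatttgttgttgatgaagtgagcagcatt
Dynlt1f: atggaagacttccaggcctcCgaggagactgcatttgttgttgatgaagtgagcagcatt
The coding sequences of Dynlt1a, Dynlt1c and Dynlt1f were identical over all 339 bases. Dynlt1b differed from each of them by 1 base, C21A, counted from 1 at the A of the start codon. The base lies in exon 1 of Dynlt1b, at position 6430232 of chromosome 17, in codon 7, and both codons encode the same amino acid. The 4 genes therefore encode 1 protein sequence. The 771-base transcripts of Dynlt1b and Dynlt1f differed at 7 bases in all, of which 4 lie before the coding part, 1 in it and 2 after it.

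The other 3 genes are easier to tell apart. Dynlt3 (ENSMUSG00000031176) is on the minus strand of chromosome X at 9654267-9663003, has 348 coding bases and was 64.2% identical to Dynlt1b over 338 aligned coding bases. Dynll1 (ENSMUSG00000009013) is on the minus strand of chromosome 5 at 115297110-115300999, and Dynll2 (ENSMUSG00000020483) is on the minus strand of chromosome 11 at 87979525-87987533. Both have 3 exons and 267 coding bases, at 50 of which they differ (81.3% identity). Their first 60 coding bases are shown for contrast with the Dynlt1 copies, with the 9 bases that differ between them in capitals.
Dynll1: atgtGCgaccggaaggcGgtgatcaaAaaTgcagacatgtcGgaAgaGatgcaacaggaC
Dynll2: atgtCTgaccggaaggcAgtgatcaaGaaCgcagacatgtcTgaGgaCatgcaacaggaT

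How far a read can be assigned to 1 copy was described by counting the 31-base words of each gene's annotated transcripts that occur in no other annotated gene. In Dynlt3 and Dynll2 every word was specific, and in Dynll1 3675 of 3961 words (92.8%) were. In Dynlt1a 924 of 4319 words (21.4%) were specific, in Dynlt1b 97 of 741 (13.1%), in Dynlt1c 289 of 3803 (7.60%) and in Dynlt1f 267 of 3654 (7.31%). Within the coding part, none of the 309 words of Dynlt1a, Dynlt1c or Dynlt1f was specific, against 21 of 309 (6.80%) in Dynlt1b. All 97 specific words of Dynlt1b lie between bases 14 and 151 of its transcript, around its start codon and the C21A base. The 31 specific words of the 771-base Dynlt1f transcript cover bases 465 to 525, after the coding part. The submitters' processing notes name Salmon 0.12.0 and do not say how reads that match several copies were assigned. The division of the Dynlt1 signal among its copies is therefore less certain than its sum. In the 771-base transcripts of Dynlt1b and Dynlt1f, specific words lie in a short stretch. Outside it, each word also occurs in some other gene, but may still tell Dynlt1b and Dynlt1f from each other.

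**Figure D1:**
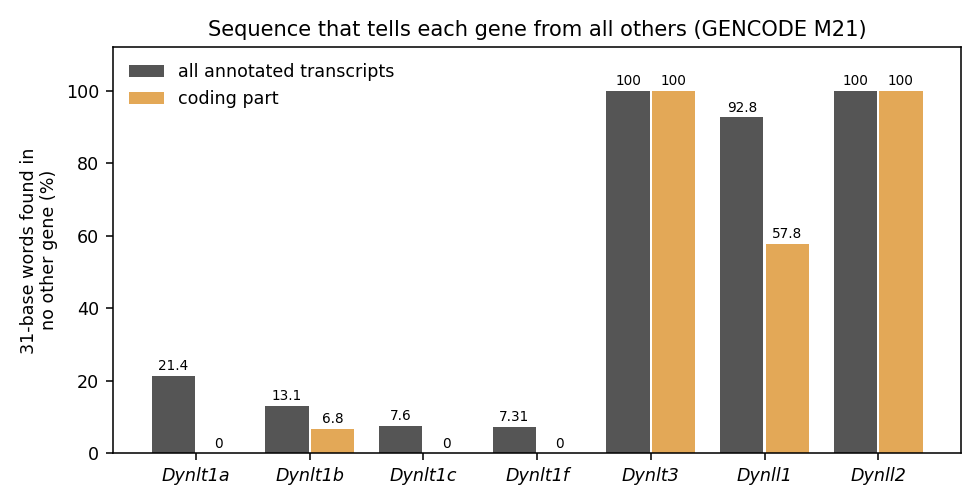
Percent of 31-base words of each gene's annotated transcripts that occur in no other annotated gene, for all transcript bases and for the coding part of the 7 genes. The 4 Dynlt1 copies sit at 7.31% to 21.4% for all bases and at 0 or 6.80% in the coding part, while Dynlt3 and Dynll2 sit at 100%.

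The deposited values of a sample summed to between 23520223 and 33393950 normalized counts. Dock3 KO replicates 1 and 2 stood apart: Gm42418, which overlaps ribosomal RNA sequence, and Lars2 made up 17.9% and 20.3% of their sums, against 3.00% to 3.64% in the other 4 samples. Dock3 itself was at 118 to 169 normalized counts in the WT muscles, with 22.4, 1.78 and 1.54 in knockout replicates 1, 2 and 3. All 10 muscle fibre markers (among them Acta1, Ckm and Myh4) were present in every sample, and their sum overlapped between the genotypes (1.24e+06 to 1.33e+06 in WT, 1.27e+06 to 1.41e+06 in Dock3 KO). Of the markers of other cells, summed over 5 genes each, erythrocyte (28542 to 54916 against 36950 to 97653), adipocyte (1925 to 3453 against 2355 to 3208) and Schwann cell markers (1457 to 1941 against 1576 to 1859) overlapped. The 5 macrophage markers summed to 2896 to 3141 in WT and to 2243 to 2893 in Dock3 KO and did not overlap, and their part in the differences of the light chains was not tested. Male germ cell markers, listed because Dynlt1 was first known from testis, summed to at most 1.82 with Prm1, Prm2 and Tnp1 at 0 throughout, and the 4 ciliated cell markers in the table summed to 24.9 to 49.5 in WT and to 13.9 to 25.9 in Dock3 KO. Over all 16031 genes tested, 165 (1.03%) passed limma's test at an adjusted p of 0.05, of which 94 (0.586% of the tested) were lower and 71 (0.443%) higher in the knockout. On the deposited scale, 43.0% of these 165 were higher. After rescaling every sample to the same total, 177 genes passed and 23.2% of them were higher. With Gm42418 and Lars2 left out of that total, 162 genes passed and 32.1% of them were higher. The rescalings moved the median log2 difference of all genes from -0.01 to -0.28 and -0.11, in that order.

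The Dynlt1 copy with most of the signal was lower in Dock3 KO. Dynlt1b stood at 767, 711 and 826 normalized counts in the WT muscles (replicates 1, 3 and 4, the order kept throughout) against 370, 270 and 294 in the knockout muscles (replicates 1, 2 and 3, likewise). Every WT sample lay above every Dock3 KO sample, by more than the range within either group. The WT mean was 768 ± 57.5 and the knockout mean 312 ± 52.3 (SD, n = 3 each), which is 40.6% of WT. The difference of the means of log2(normalized count + 1), the scale of every log2 difference here, was -1.31 ± 0.16 (SE). In whole muscle, fewer cells of a type and less RNA per cell cannot be told apart.

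The difference of Dynlt1b was as large without the 2 Dock3 KO samples that stood apart. In Dock3 KO replicate 3 alone, whose Gm42418 and Lars2 share resembled that of WT, it was at 38.3% of the WT mean. Leaving out any 1 sample moved its log2 difference between -1.44 and -1.21.

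Dynlt1a was lower as well, with more spread. Its values were 63.8, 53.3 and 59.2 in the WT muscles and 32.2, 22.3 and 46.8 in the knockouts. The groups did not overlap, but Dock3 KO replicate 3 was close to the lowest WT sample and at 79.7% of the WT mean. The means were 58.8 ± 5.28 and 33.8 ± 12.3 (SD, n = 3 each), and the log2 difference was -0.84 ± 0.34 (SE). With Dock3 KO replicate 3 as the only knockout sample the log2 difference was -0.32, so the size rests on replicates 1 and 2. Dynlt1a overlaps the protein-coding gene Tmem181a on the opposite strand by 1975 bp and the long noncoding RNA gene Gm26848 by 3302 bp, and the strand setting used in counting is not given in the sources used here.

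Dynlt1c and Dynlt1f overlapped between the genotypes. Dynlt1c was at 81.0, 138 and 83.5 in the WT muscles and at 11.9, 92.6 and 98.7 in the knockouts. The low value of Dock3 KO replicate 1 sets its mean apart: the log2 difference was -0.999 ± 0.68 (SE) with that sample and -0.03 without it, and the other knockout samples lie inside the WT range. The means were 101 ± 32.0 and 67.8 ± 48.5 (SD, n = 3 each).

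Dynlt1f was at 133, 223 and 263 in the WT muscles and at 241, 161 and 194 in the knockouts. Every Dock3 KO value lies within the WT range. The means were 207 ± 66.7 and 198.5 ± 40.0 (SD, n = 3 each), with a log2 difference of -0.02 ± 0.27 (SE), whose sign changed with the setting or the sample left out (-0.31 to 0.18 over samples left out in turn).

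**Figure D2:**
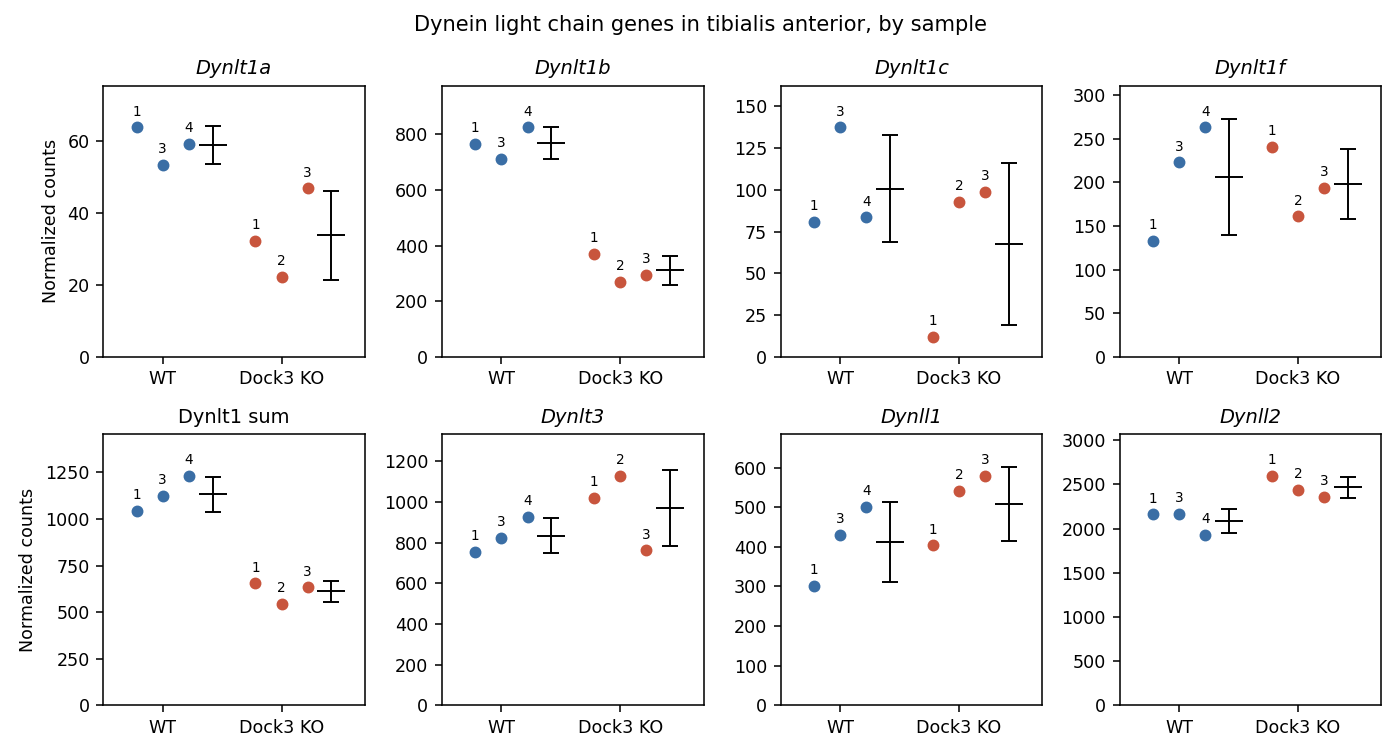
Normalized counts of the 7 genes and of the sum of the 4 Dynlt1 copies in each sample, with replicate numbers beside the points and the mean ± SD (n = 3) as a horizontal bar with whiskers. Dynlt1a, Dynlt1b, the Dynlt1 sum and Dynll2 show no overlap between WT and Dock3 KO, whereas the points of Dynlt1c, Dynlt1f, Dynlt3 and Dynll1 overlap.

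The sum of the 4 copies is less exposed than a single copy to how reads were divided among them. Reads of the same sequence that were assigned to genes outside the 4 copies are not in it. The sum was 1045, 1125 and 1232 normalized counts in the WT muscles against 655, 546 and 634 in the knockouts. The groups were far apart, with the lowest WT sample above the highest Dock3 KO sample by more than the spread within either group. The means were 1134 ± 94.1 and 612 ± 57.7 (SD, n = 3 each), so the Dock3 KO sum was 53.9% of WT, with a log2 difference of -0.89. Leaving out any 1 sample moved it between -0.95 and -0.81, and in Dock3 KO replicate 3 alone the sum was at 55.9% of the WT mean.

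Most of that difference lay in Dynlt1b. Of the difference of -522 normalized counts between the mean sums, Dynlt1b accounted for -456 (87.4%), Dynlt1c for -33.0 (6.31%), Dynlt1a for -25.0 (4.78%) and Dynlt1f for -8.08 (1.55%). Dynlt1a, Dynlt1c and Dynlt1f, the 3 copies with identical coding sequence, together made 278, 414 and 406 in WT and 285, 276 and 339 in Dock3 KO. The sum of those 3 copies overlapped between the genotypes (366 ± 76.4 and 300 ± 34.4, SD, n = 3 each; log2 difference -0.27). The ratio of Dynlt1b to them was 2.76, 1.72 and 2.03 in WT and 1.30, 0.980 and 0.867 in Dock3 KO, which did not overlap.

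A scaling factor common to all genes of a sample cancels in shares of the sum, but a factor that differs between genes does not. Whether the deposited values hold factors of the second kind was not tested. Dynlt1b held 73.4%, 63.2% and 67.0% of the Dynlt1 sum in the WT muscles and 56.5%, 49.5% and 46.4% in the knockouts. Its mean share was 67.9 ± 5.14% for WT against 50.8 ± 5.18% for the knockout (SD, n = 3 each), a difference of -17.05 percentage points with no overlap. Dynlt1f held 12.8%, 19.8% and 21.4% in WT and 36.7%, 29.5% and 30.6% in Dock3 KO, again with no overlap and a mean difference of 14.3 points. This higher share of Dynlt1f stood beside an almost equal level in normalized counts.

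The smaller copies had no such separation. Dynlt1a held 4.74% to 6.11% of the sum in WT and 4.08% to 7.39% in Dock3 KO. Dynlt1c held 6.78% to 12.2% in WT and 1.81%, 16.96% and 15.6% in the knockouts, so that its lowest and highest shares both came from the knockout. Dock3 KO replicate 1, with the lowest Dynlt1c share, had the highest Dynlt1f share.

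**Figure D3:**
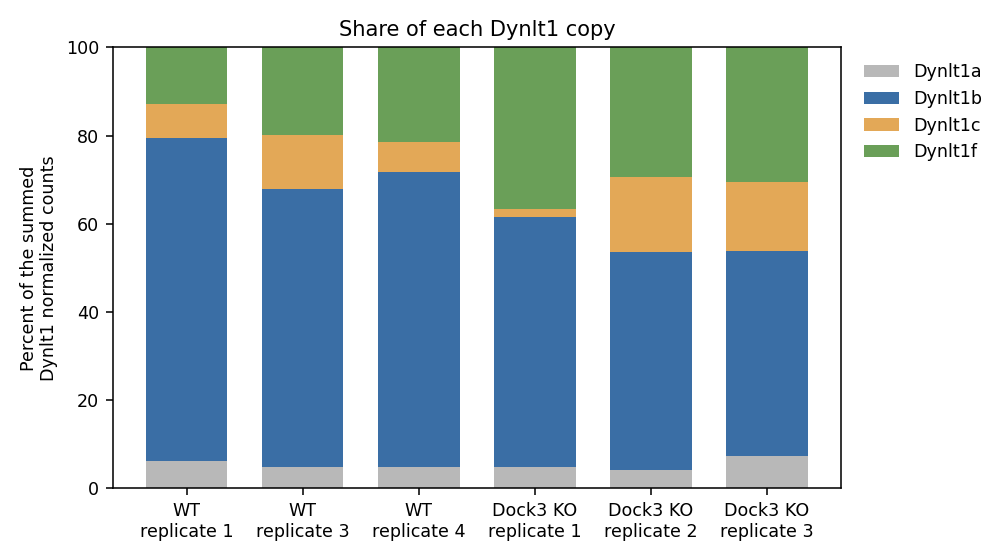
Share of each Dynlt1 copy in the sum of the 4 copies, in percent, stacked for each of the 6 samples. Dynlt1b fills 63.2% to 73.4% of the WT bars and 46.4% to 56.5% of the Dock3 KO bars, and Dynlt1f fills 12.8% to 21.4% and 29.5% to 36.7%.

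Relative to the mean, Dynlt1c and Dynlt1f varied less together than apart, which a sum of unrelated genes can also do. Their sum was 214, 361 and 347 in WT and 252, 254 and 293 in Dock3 KO. Within Dock3 KO the coefficient of variation was 71.5% for Dynlt1c, 20.1% for Dynlt1f and 8.58% for their sum, and within WT it was 31.7%, 32.3% and 26.3%. In the same order the SDs were 48.5, 40.0 and 22.8 in Dock3 KO. In WT they were 32.0, 66.7 and 80.9, so there the SD of the sum was the largest. The sample with the least Dynlt1c in Dock3 KO, replicate 1, had the most Dynlt1f.

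A copy of the same sequence also lies on another chromosome. Dynlt1-ps1, a processed pseudogene on the minus strand of chromosome 6 at 135349408-135349749 (GRCm38), matched the 339 coding bases of Dynlt1a, Dynlt1c and Dynlt1f with 0 differences and those of Dynlt1b with 1. It was listed at 18.3 normalized counts in Dock3 KO replicate 2 and at 0 in the other 5 samples. Added to the 546 of that sample, this value leaves the Dynlt1 sum of Dock3 KO replicate 2 the lowest of the 6. Gm26848, in which Dynlt1b lies on the same strand, had a mean of 3.11 normalized counts.

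Dynlt3, the other Tctex-type chain among the 7 genes, was not lower on the deposited scale. It was at 755, 823 and 927 in the WT muscles and at 1020, 1129 and 762 in the knockouts. Replicates 1 and 2 of Dock3 KO were above all WT samples, and replicate 3 was inside the WT range. The means were 835 ± 86.3 and 970 ± 188 (SD, n = 3 each), with a log2 difference of 0.20 ± 0.17 (SE) on the deposited scale, which was -0.07 after rescaling to the same total and -0.13 with replicate 3 as the only knockout sample.

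The balance between Dynlt3 and the Dynlt1 copies was different between the genotypes. A scaling factor common to all genes of a sample cancels in this ratio, but a factor that differs between genes does not. Dynlt3 stood to the Dynlt1 sum at 0.723, 0.731 and 0.752 in the WT muscles and at 1.56, 2.07 and 1.20 in the knockouts. Dynlt3 was thus below the Dynlt1 sum in all 3 WT samples and above it in all 3 Dock3 KO samples, in normalized counts not divided by transcript length. The ratio varied little in WT (SD 0.0149) and more in Dock3 KO (SD 0.434), where replicate 3 had the lowest value. Dynlt3 and the 4 Dynlt1 copies together made 1969 ± 180 in the WT muscles and 1582 ± 161 in the knockouts (SD, n = 3 each). These sums did not overlap, and their log2 difference was -0.32.

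Of the LC8-type chains, Dynll1 overlapped between the genotypes. Its values were 302, 431 and 502 in the WT muscles and 404, 542 and 580 in the knockouts, and the log2 difference was 0.32 ± 0.22 (SE) on the deposited scale. It was 0.04 after rescaling to the same total, 0.11 without WT replicate 1 and 0.57 with log2 Gm42418 as a covariate, so its size depended on the setting. The sample numbered 1 was the lowest of its group in both genotypes, although equal numbers do not mark a shared animal.

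Dynll2 varied little within each genotype. It was at 2163, 2167 and 1933 in the WT muscles and at 2599, 2438 and 2361 in the knockouts. The groups did not overlap on the deposited scale, where the log2 difference was 0.24 ± 0.12 (SE), but it was 0.14 after rescaling to the same total without Gm42418 and Lars2 and -0.03 after rescaling to the same total. The means were 2088 ± 134 and 2466 ± 121 (SD, n = 3 each).

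Dynll1 and Dynll2 summed were less variable than either alone, at 2465, 2598 and 2435 in WT and 3002, 2980 and 2941 in Dock3 KO on the deposited scale. The coefficient of variation of this sum was 3.46% in WT and 1.04% in Dock3 KO. Dynll2 stood to Dynll1 at 5.35 ± 1.67 in the WT muscles and at 5.002 ± 1.26 in the knockouts (SD, n = 3 each), so the balance of the LC8-type genes differed by less than the spread between replicates. All 7 genes together made 4468 ± 177 normalized counts in WT and 4556 ± 190 in Dock3 KO, with overlap.

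Across the 7 genes, 3 did not overlap between the genotypes on the deposited scale: Dynlt1a and Dynlt1b, which were lower in Dock3 KO, and Dynll2, which was higher there but not after rescaling to the same total. Of all 16031 genes tested, 16.2% did not overlap, 8.65% lower and 7.60% higher. Since the genes were chosen with this contrast known, nothing is read from their count.

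Levels were compared between genes only per kilobase of the longest coding transcript. In WT the order was Dynlt1b (996 ± 74.6 normalized counts per kb), Dynll2 (843 ± 54.0), Dynlt3 (384 ± 39.6), Dynlt1f (268 ± 86.5), Dynll1 (203 ± 49.8), Dynlt1c (38.9 ± 12.3) and Dynlt1a (17.7 ± 1.59), each with its SD over n = 3. Of neighbours in that order, only Dynlt1f and Dynll1 overlapped over the WT samples. In Dock3 KO Dynll2 came first (996 ± 48.9), then Dynlt3 (446 ± 86.5) and Dynlt1b (404 ± 67.8), which overlapped. Dynlt1f (257 ± 51.9) and Dynll1 (250 ± 45.6) followed and overlapped too, before Dynlt1c (26.2 ± 18.7) and Dynlt1a (10.2 ± 3.72), which also overlapped. On this measure Dynlt1b was first in WT and the third in Dock3 KO. The order depends on the transcript used: per kilobase of the shortest coding transcript, Dynll1 was at 565 in WT, above Dynlt3, and Dynlt1a was at 91.8, above Dynlt1c. Dynll2 then ranged from 884 to 991 over the WT samples and overlapped Dynlt1b (922 to 1072), so the first place of Dynlt1b was not separated. In Dock3 KO, Dynll1 was then at 697.5, which put Dynlt1b, unchanged at 404, in the fourth place.

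Each copy's pattern over the 6 samples was set beside those of all other tested genes, by the root mean square difference of log2 values centred on each gene's mean. Closest to Dynlt1b, whose own root mean square deviation was 0.671, were Gm49167 (0.0829), the sugar phosphate transporter gene Slc37a1 (0.0869) and Ripor2 (0.141), which encodes an inhibitor of the GTPase RhoA. Slc37a1, also on chromosome 17, was at 48.1, 42.3 and 49.4 in the WT muscles and at 25.7, 15.8 and 18.9 in the knockouts. Closest to Dynlt1a (0.521) were Frat1 (0.111), Mid1ip1 (0.135) and the mitochondrial sodium-calcium exchanger gene Slc8b1 (0.145).

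The patterns of Dynlt1c and Dynlt1f resembled different genes. Closest to Dynlt1c (1.12) were Gm38220 (0.252), the circadian clock gene Per2 (0.260) and Frem2 (0.265). Per2 was at 392, 555 and 614 in the WT muscles and at 71.8, 468 and 511 in the knockouts, so Dock3 KO replicate 1 was the low sample there too. Closest to Dynlt1f (0.339) were Dnal4 (0.0723), 2410015M20Rik (0.0915) and the ribosomal protein gene Rpl12 (0.0918). Dnal4, an LC8-like light chain of axonemal dynein, was at 52.2, 87.9 and 113 in the WT muscles and at 108, 63.1 and 81.3 in the knockouts, the same order of samples as in Dynlt1f. These likenesses cover 6 samples and the whole table, and they are descriptions. The genes were picked as the closest of all tested genes, so a like order of samples follows from that choice.

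The genes around the Dynlt1 copies were taken by position, within 300 kb of the outermost copies. Of 30 other annotated genes there, 10 were tested, and 0 passed an adjusted p of 0.05 (limma, Benjamini-Hochberg over all genes), against 1.03% of all genes. At an unadjusted p of 0.05, 3 of the 10 passed, against 10.5% of all genes. The median log2 difference of the 10 was -0.17, with 2 above 0 and a range from -0.99 to 0.32. Tulp4, which encodes a tubby-like protein and had the highest mean, was at 3984, 3305 and 3276 in the WT muscles and at 4158, 4651 and 4352 in the knockouts (log2 difference 0.32 ± 0.13 SE, limma adjusted p = 0.395).

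Beside Dynlt1b lies Tmem181b-ps, a transcribed pseudogene on the minus strand of chromosome 17 at 6438524-6467022, named here after its values were seen. It was at 218, 155 and 143 in the WT muscles and at 76.9, 73.8 and 106 in the knockouts, without overlap. The log2 difference was -0.99 ± 0.24 (SE), with a limma adjusted p of 0.127. Tmem181a, the protein-coding gene that overlaps Dynlt1a and was also named after its values were seen, was at 247, 348 and 303 in the WT muscles and at 188, 202 and 260 in the knockouts, with overlap (log2 difference -0.46 ± 0.20 SE, limma adjusted p = 0.448). The transcripts of these neighbours are 99.4% identical over 1415 aligned bases, so the division of reads between them is uncertain in the same way as among the Dynlt1 copies.

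**Figure D4:**
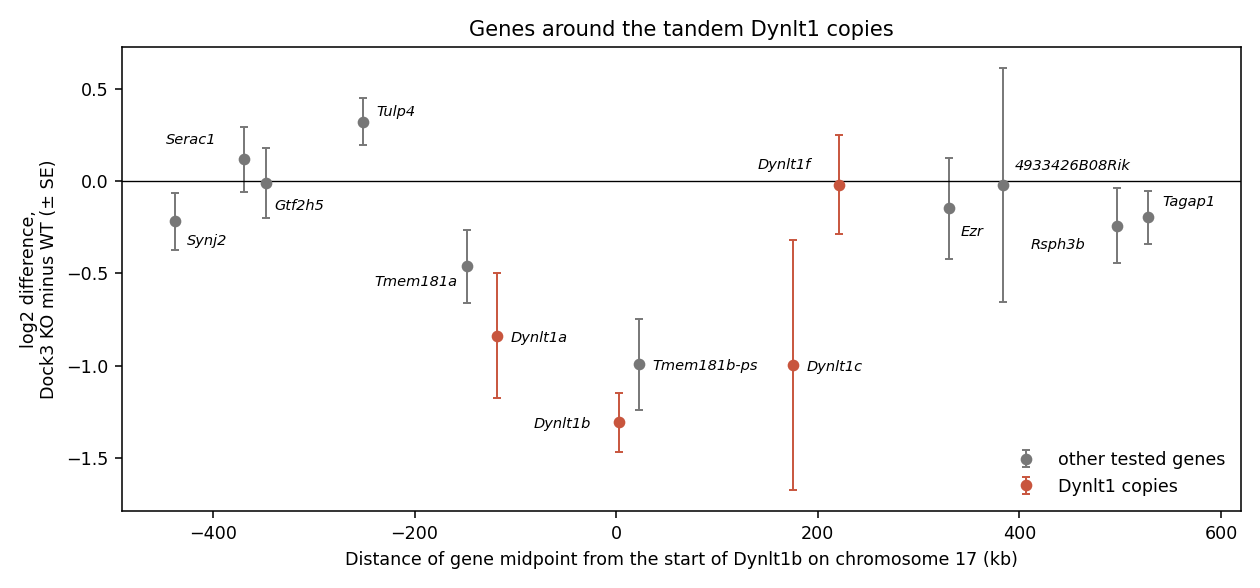
log2 difference (Dock3 KO minus WT) ± SE of the 4 Dynlt1 copies and of the 10 other tested genes within 300 kb of them, against the distance of the gene midpoint from the start of Dynlt1b in kb. Dynlt1b at -1.31 is the lowest point, Tmem181b-ps beside it is at -0.99, and Dynlt1f is at -0.02.

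Other near-identical genes were found for Dynll1 alone among the 3 genes outside the Dynlt1 cluster. At 95% identity or more over at least 100 aligned bases and 50% of the shorter transcript, 37 other genes matched Dynll1. Of these, 34 are short RNA genes aligned over 120 to 127 bases only, mostly outside the coding part of Dynll1. The 13 of the 37 genes with a mean of at least 10 were Gm23638, Gm24303, Gm25197, Gm28017, Gm27743, Gm25960, Gm24979, Gm11032, Gm27512, Gm25535, Gm25735, Gm22692 and Gm26269. The highest, Gm23638, annotated as a miRNA gene, had a mean of 61.3 and ranged from 30.7 to 82.6 in WT and from 33.3 to 94.0 in Dock3 KO. The processed pseudogene Gm6788, which matches the coding part of Dynll1 at 96.7% over 270 bases, had a mean of 0.138. Dynlt3 and Dynll2 had 0 such matches.

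The rest of the dynein machinery was described with 7 lists holding 54 genes, of which 47 were tested. None passed an adjusted p of 0.05 (limma, Benjamini-Hochberg over all genes), against 1.03% of all genes, and 4 of 47 passed an unadjusted p of 0.05, against 10.5%. In data simulated on these samples, the same fit over 16031 genes called 69 of 100 genes changed by 2 on the log2 scale. It called 30 of 100 changed by 1. The changed genes were drawn at random from all tested genes, with noise independent between genes. These shares are therefore not those of the dynein lists, for which the share of changes that would be called was not measured. The median log2 difference of the 47 was -0.01, with 23 above 0, beside -0.01 for all genes. Groups did not overlap for 8 of 47, beside 16.2% of all genes.

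None of the tested motor subunits that the light chains join passed the threshold. Of the heavy, intermediate and light intermediate chains of cytoplasmic dynein, 4 were tested, with a median log2 difference of -0.13 and all 4 overlapping. Dync1h1, the heavy chain, was at 4586 ± 636 in the WT muscles and 4821 ± 909 in the knockouts (SD, n = 3 each; log2 difference 0.06 ± 0.17 SE, limma adjusted p = 0.947). The other 3 had log2 differences below 0, at -0.26 for the light intermediate chain Dync1li1, -0.15 for Dync1li2 and -0.11 for the intermediate chain Dync1i2, with SEs of 0.17, 0.18 and 0.14. Of the roadblock light chains, Dynlrb1 was at 1155 ± 120 and 981 ± 132 (log2 difference -0.24 ± 0.15 SE, limma adjusted p = 0.643), and Dynlrb2 was listed at 0 in every sample. Among other Tctex-type and LC8-like chains 2 of 5 were tested, of which Dnal4 had the higher mean, with a log2 difference of 0.03 and a limma adjusted p of 0.989.

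Dynein-2, the motor of transport inside cilia, had 4 subunit genes tested, with log2 differences from -0.71 to 0.49, all overlapping. Its heavy chain Dync2h1 was at 186 ± 8.02 and 207 ± 72.9 (limma adjusted p = 0.953). Dynactin, the complex that joins dynein to cargo, had 12 of 12 genes tested with a median log2 difference of -0.04 and a range from -0.19 to 0.27. Capza2, which caps actin filaments and was its gene with the highest mean, was at 6830 ± 619 and 6638 ± 1227 (log2 difference -0.05 ± 0.16 SE, limma adjusted p = 0.951).

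Of the regulators and cargo adaptors of dynein, 12 of 13 were tested, with a median log2 difference of 0.07. Of these 12, 1 had a limma unadjusted p under 0.05, against 10.5% of all genes. Pafah1b1, which encodes the dynein regulator LIS1 and had the highest mean, was at 3628 ± 500 and 3883 ± 719 (limma adjusted p = 0.913). Of 13 genes whose proteins bind the light chains 12 were tested, with a median of 0.11 and a range from -0.67 to 0.58. A limma unadjusted p under 0.05 was found for 3 of these 12, again beside 10.5% of all genes. The mitochondrial channel gene Vdac1, with the highest mean there, was at 19457 ± 945 and 22361 ± 1248 (log2 difference 0.20 ± 0.13 SE, limma adjusted p = 0.664).

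The ends of that range were a kinase and a motor that bind LC8-type chains, named here after their values were seen. Pak1, a kinase activated by Rac, was at 282 ± 42.5 and 421 ± 62.3 (log2 difference 0.58 ± 0.18 SE, limma adjusted p = 0.244). Myo5a, the heavy chain of myosin Va, of which Dynll2 is a light chain, was at 669 ± 223 and 406 ± 22.8 (log2 difference -0.67 ± 0.21 SE, limma adjusted p = 0.254). Neither passed the threshold.

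**Figure D5:**
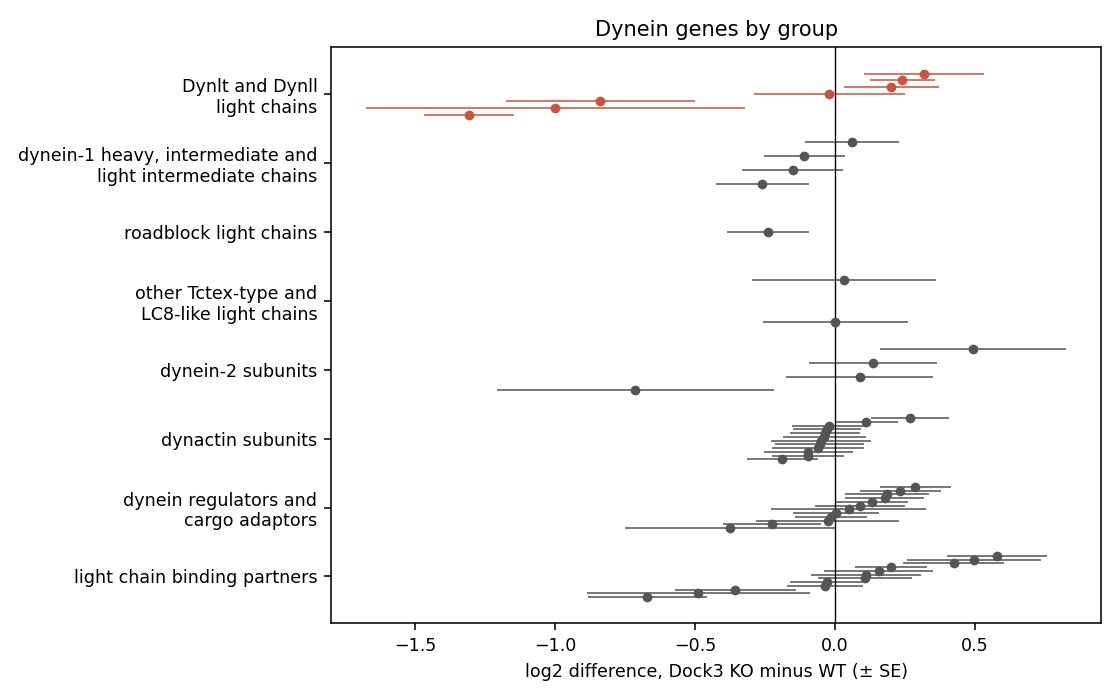
log2 difference (Dock3 KO minus WT) of the 7 light chain genes and of the 47 tested genes of the 7 dynein lists, 1 point per gene. The lists spread from -0.71 to 0.58, and no gene of the lists passed an adjusted p of 0.05. Dynlt1a, Dynlt1b and Dynlt1c lie at -0.84, -1.31 and -0.999, the last at -0.03 without Dock3 KO replicate 1. Dynlt1f (-0.02), Dynlt3 (0.20), Dynll1 (0.32) and Dynll2 (0.24) lie inside the range of the lists. The 7 genes were selected on this contrast and the lists were not, so nothing is read from their positions.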

How the data were processed

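Total RNA was depleted of ribosomal RNA and sequenced as stranded paired-end libraries, per the labels' protocols. The submitters' processing notes name FastQC, Trim Galore 0.4.5, Salmon 0.12.0, DESeq2 1.22.1, R 3.5.3 and the builds mm10 and GRCm38. The authors deposited 1 table of normalized counts, a signal per gene that is neither whole reads nor of fixed sum, so limma replaced a count model. Beyond these names, the annotation, the strand setting and the handling of reads shared by several genes are not given in the sources used here. Counting depth is not known from the values, so precision rests on the replicates.

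Values were used as log2(normalized count + 1). Genes with a mean of at least 10 (16031 of 54393) were fitted with limma 3.58.1 in R 4.3.3 (trended prior variance), WT against Dock3 KO, with Benjamini-Hochberg adjustment and a threshold of 0.05. Sums and shares of the Dynlt1 copies were computed per sample. An exact permutation test of 3 against 3 cannot give a two-sided p below 0.1. Symbols, positions and transcript sequences are from GENCODE M21 (GRCm38). All 54393 identifiers matched. Near-identical copies were searched with blastn 2.17.0 (at least 95% identity, 100 aligned bases and 50% of the shorter transcript). The fit was also tested on simulated data. Groups follow the genotype labels and replicate numbers the titles.

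The members, lists and tests were chosen with earlier results of these data known. Genes named are the 7 members, the gene with the highest mean of each list and of the neighbours, any gene of these past the threshold, near-identical copies with a mean of at least 10, and the 3 genes most like each Dynlt1 copy. Outside this rule, Tmem181b-ps, Tmem181a, Pak1, Myo5a, Dync1li1, Dync1li2, Dync1i2, Dynlrb2, Gm26848, Dynlt1-ps1 and Gm6788 were named after their values were seen. Alternatives were other pseudocounts (0.1 and 10), filters (none and 50), scalings, prior variances, a replicate block, Gm42418 as a covariate, each sample left out, a 1 Mb window and 90% identity. Leaving out Dock3 KO replicates 1 and 2 together, and the shortest coding transcript, were chosen after seeing the data.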

Additional observations from a re-analysis of the deposited data

How the results depend on the processing

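Of 192 recomputed values, 14 reversed and 12 others moved by more than the spread between replicates or, for counts, by more than 1.5 times. The other 166 include values that moved within a wide spread, as for Dynlt1c and Dynll1, and counts that were 0 throughout. The cause was not tested for any of them. The 165 genes past the threshold became 104 without a trend in the prior variance, 57 with log2 Gm42418 as a covariate, 49 without Dock3 KO replicates 1 and 2, and 98 to 159 when each sample was left out, the fewest without WT replicate 4 (98) and Dock3 KO replicate 2 (100). No dynein list gene or chromosome 17 neighbour passed in any alternative run, the 1 Mb window included.

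With log2 Gm42418 as a covariate the log2 difference was -0.26 for Dynlt1a, 0.11 for Dynlt1c, 0.0208 for Dynlt1f and -0.16 for Dynlt3. Without Dock3 KO replicates 1 and 2 it was -0.32 for Dynlt1a, 0.0153 for Dynlt1c and -0.13 for Dynlt3, where the lone knockout sample is assumed to vary like the WT group. Rescaling to the same total gave -1.58 for Dynlt1b, -1.17 for the Dynlt1 sum, -0.0733 for Dynlt3 and -0.0345 for Dynll2, and leaving out Gm42418 and Lars2 from that total gave 0.14 for Dynll2. Quantile normalization gave 0.0269 for Dynlt1f.

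For Dynll1 the covariate gave 0.57, the same total 0.04 and Dock3 KO replicate 3 as the only knockout sample 0.52.

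Samples left out in turn gave -1.10 to -0.58 for Dynlt1a, -1.44 to -1.21 for Dynlt1b, -1.51 to -0.03 for Dynlt1c (the last without Dock3 KO replicate 1), -0.31 to 0.18 for Dynlt1f, 0.11 to 0.48 for Dynll1 (the first without WT replicate 1) and -0.95 to -0.81 for the sum. The difference in share ranged from -0.72 to 0.94 points for Dynlt1a (below 0 without Dock3 KO replicate 3) and from -0.23 to 7.35 for Dynlt1c (below 0 without Dock3 KO replicate 2). The replicate numbers did not pair the samples (correlations of deviations 0.06 and 0.01 for numbers 1 and 3), and the fit with the replicate block, which has few residual degrees of freedom, gave 127 genes past the threshold, 0.32 for Dynlt1f and -0.75 for the Dynlt1 sum. At 90% identity, 61 near-identical genes were found in place of 39.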
